A study of Mus musculus with 18 samples.

Results

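The genes described here are the extracellular and nuclear ends of the Wnt pathway: the Wnt ligands, the Frizzled receptors and their Lrp co-receptors, the R-spondins, the secreted inhibitors of the Sfrp, Dkk and Wif families, the Axins, beta-catenin and the TCF/LEF transcription factors. These genes were picked by symbol, with no measured value in that step, though earlier results of these data were known. The array carried 89 probes for 50 such genes among its 45281 probes and 30869 symbols, and each gene was followed by the probe with the highest mean signal over all arrays. By role, the 50 genes were 19 ligands, 10 receptors, 2 co-receptors, 4 R-spondins, 9 secreted inhibitors, 3 Axin or beta-catenin genes and 3 TCF/LEF genes. The mRNA was measured on 18 Illumina MouseWG-6 v2 arrays in ESD3 (D3) cells, a mouse embryonic stem cell line of strain 129s2/SvPas kept on embryonic fibroblast feeders. Control cells carried a viral shRNA against luciferase and knockdown cells one against HPRT, the purine salvage enzyme hypoxanthine phosphoribosyltransferase (the methods name the human gene as the one targeted). Both were selected with puromycin as transduced populations and taken through the same dopaminergic differentiation, with Shh and FGF8 among its reagents, from the ES stage over spherical neural masses (SNM) to the final neuronal stage. Each of the 6 conditions was 1 pool of RNA from replicated cultures, read on 3 arrays, so every SD and test below measures the spread between arrays of a pool, and a difference is one between RNA pools.

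In the canonical Wnt pathway a secreted Wnt ligand binds a Frizzled receptor together with Lrp5 or Lrp6, which stops the Axin-containing complex from destroying beta-catenin. Beta-catenin then enters the nucleus and acts with TCF/LEF factors on target genes, among them the feedback inhibitor Axin2. In the developing midbrain Wnt signals take part in patterning and in the birth of dopaminergic neurons, and the secreted inhibitors and R-spondins set how much ligand signal a cell receives.

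The knockdown was visible in the targeted gene, listed on the array as Hprt1. At the ES stage the brightest Hprt1 probe had a normalised log2 signal of 12.04, 12.07 and 12.004 on the control arrays and 8.14, 7.96 and 7.75 on the knockdown arrays. The knockdown arrays lay below the control arrays at all 3 stages, with log2 differences of -4.09 among ES, -1.76 among SNM and -4.45 among neuronal cells. Arrays of a condition correlated at 0.992 to 0.997 and detected 18827 to 22202 probes. Summed signals of marker genes, here and below, add up the exported intensities, without background correction or scaling between arrays. The stage labels were checked against marker genes: the summed signal of 9 pluripotency genes was 28500 to 34900 on the ES arrays of both cell types, and on the neuronal arrays 3930 to 4960 in control and 1620 to 1740 in knockdown cells. The summed signal of 8 neuronal genes was 1960 to 2480 on the ES arrays, 9840 to 11800 on the control and 5390 to 6420 on the knockdown neuronal arrays, where 6 and 5 of the 8 were detected on all 3 arrays. On the SNM arrays it was 7090 to 7890 in control and 6090 to 7690 in knockdown cells. From the SNM to the neuronal stage, 1 of 5 tested neuronal genes was called higher and 4 lower in knockdown cells. These genes thus set the neuronal above the SNM stage in control cells only. Nefl and Snap25 were detected on no array at any stage and Tubb3 on no knockdown array of the neuronal stage. Among the neuronal-stage arrays, the summed signal of 10 skeletal muscle genes was 61800 to 75000 in control cells and 819 to 946 in knockdown cells, and that of 10 oligodendrocyte genes 3630 to 4370 in control and 62800 to 68900 in knockdown cells. In such bulk RNA, fewer cells of a type and less RNA per cell cannot be told apart.

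A condition counted as detecting a gene where each of its 3 arrays gave a detection p-value below 0.05. By this measure 34 of the 50 genes were detected in some condition and 14 in all 6. The detected genes were 10 ligands, 9 receptors, both co-receptors, 2 R-spondins, 5 secreted inhibitors and all of the Axin, beta-catenin and TCF/LEF genes. The 16 genes that never reached this level were Wnt1, Wnt2b, Wnt3, Wnt8b, Wnt9a, Wnt9b, Wnt10a, Wnt10b, Wnt11, Fzd4, Rspo1, Rspo4, Dkk2, Dkk4, Sfrp4 and Sfrp5, and 8 of them were detected on no array. At the ES stage 18 of the 50 genes were detected on all 3 arrays in control and 18 in knockdown cells. At the later stages the numbers were 29 in control and 27 in knockdown cells, at the SNM and the neuronal stage alike. Of the genes detected in either cell type at the ES stage, 3 were among the 19 ligands and 5 among the 10 receptors, as the map of all genes on all arrays shows.

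**Figure D1:**
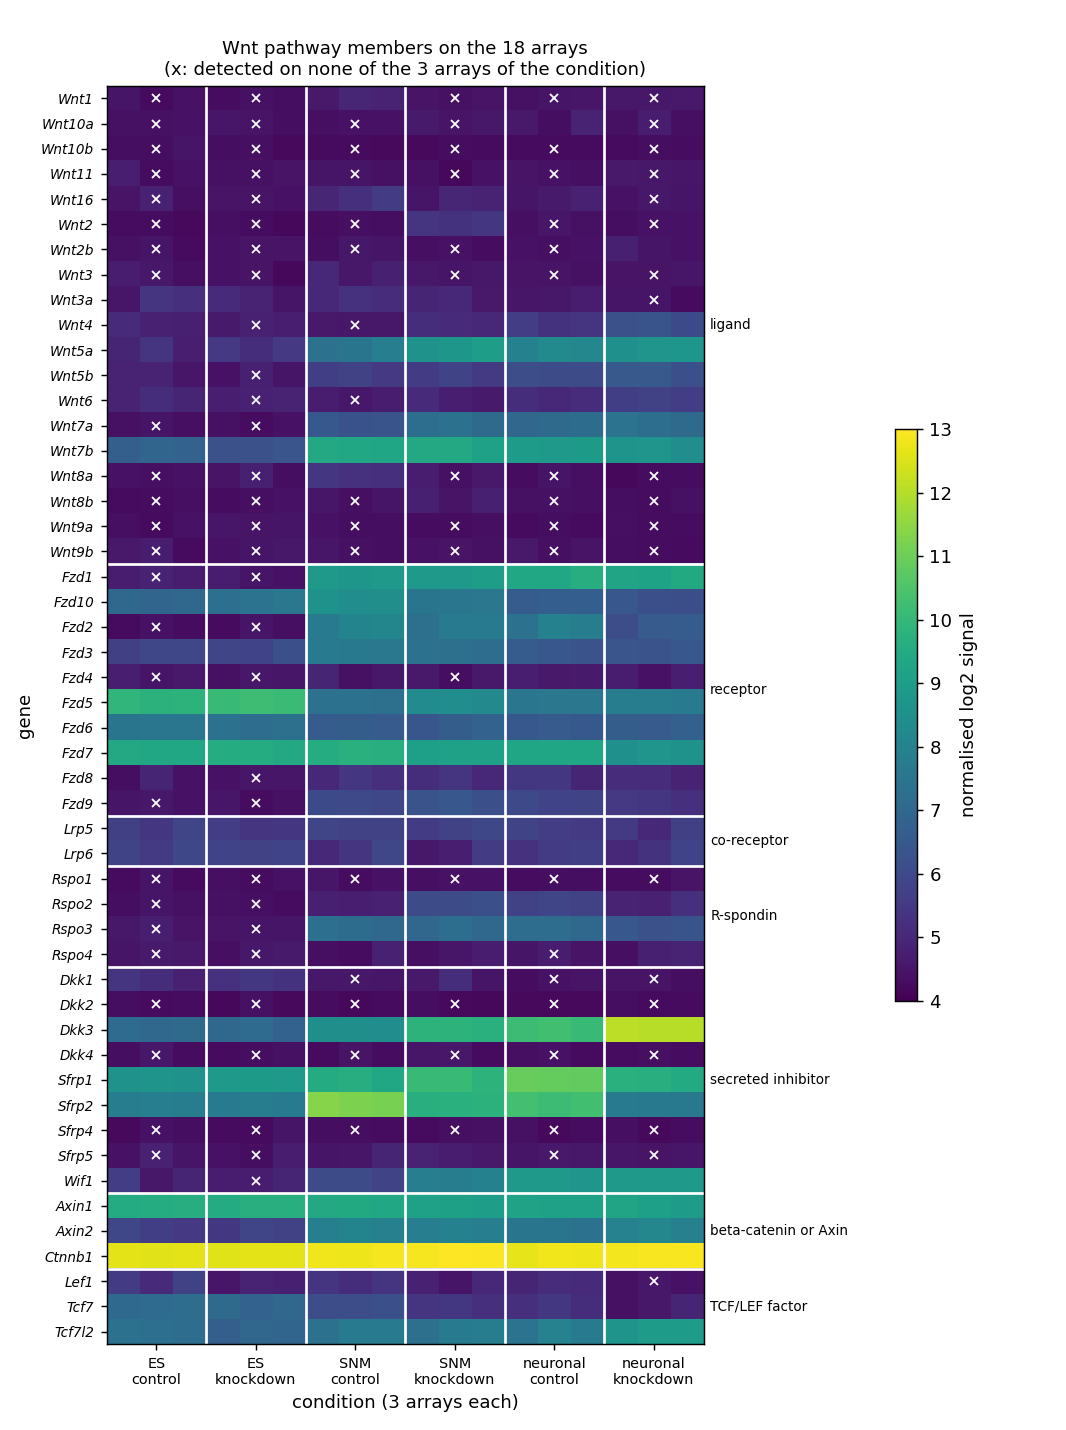
Normalised log2 signal (colour) of the 50 genes (rows, grouped by role) on the 18 arrays (columns, 3 per condition). A cross marks a gene detected on none of the 3 arrays of a condition; colours may be compared along a row but not between rows, since probes differ in brightness. In the ES columns 25 control and 30 knockdown genes carry a cross, against 14 to 19 in the later columns.

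Knockdown and control cells were compared at each stage with limma over all probes. A gene was tested where it was detected on all 3 arrays of 1 of the conditions compared, and was called where the change reached 1.5-fold and its p-value, adjusted after Benjamini and Hochberg, lay below 0.05. At the ES stage 0 of 20 tested genes were called higher and 1 lower, against 1.68% of all tested probes called (0.516% higher, 1.17% lower). At the SNM stage 7 genes were called higher and 4 lower of 32 tested (34.4%), against 19.9% of all probes (11% higher, 8.90% lower). Among neuronal cells 3 were called higher and 7 lower of 29 tested (34.5%), against 27.4% of all probes (13.9% higher, 13.5% lower). The median log2 change of the tested genes was -0.0014, -0.02 and -0.12 at the 3 stages, beside 0.0075, -0.04 and 0.01 over all tested probes. The shares of called genes lay above those of all probes at the 3 stages, at the ES stage through 1 gene, a difference that was not tested. Each gene was followed by its brightest probe, while the background held every tested probe. A gene detected on all 3 arrays of only 1 cell type could hardly be called in the other direction, so such calls and the shares are descriptions. Among the called genes this held for Lef1 (ES), Wnt2, Wnt8a and Rspo2 (SNM) and Tcf7 (neuronal). The largest differences belonged to the secreted inhibitors Sfrp2, Wif1 and Dkk3, and no difference of beta-catenin, the Axins or the co-receptors was called. In every call, here and in the further pathway lists below, the control and knockdown arrays did not overlap. This was not counted over all called probes, so it describes the calls and adds no support to them.

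**Figure D2:**
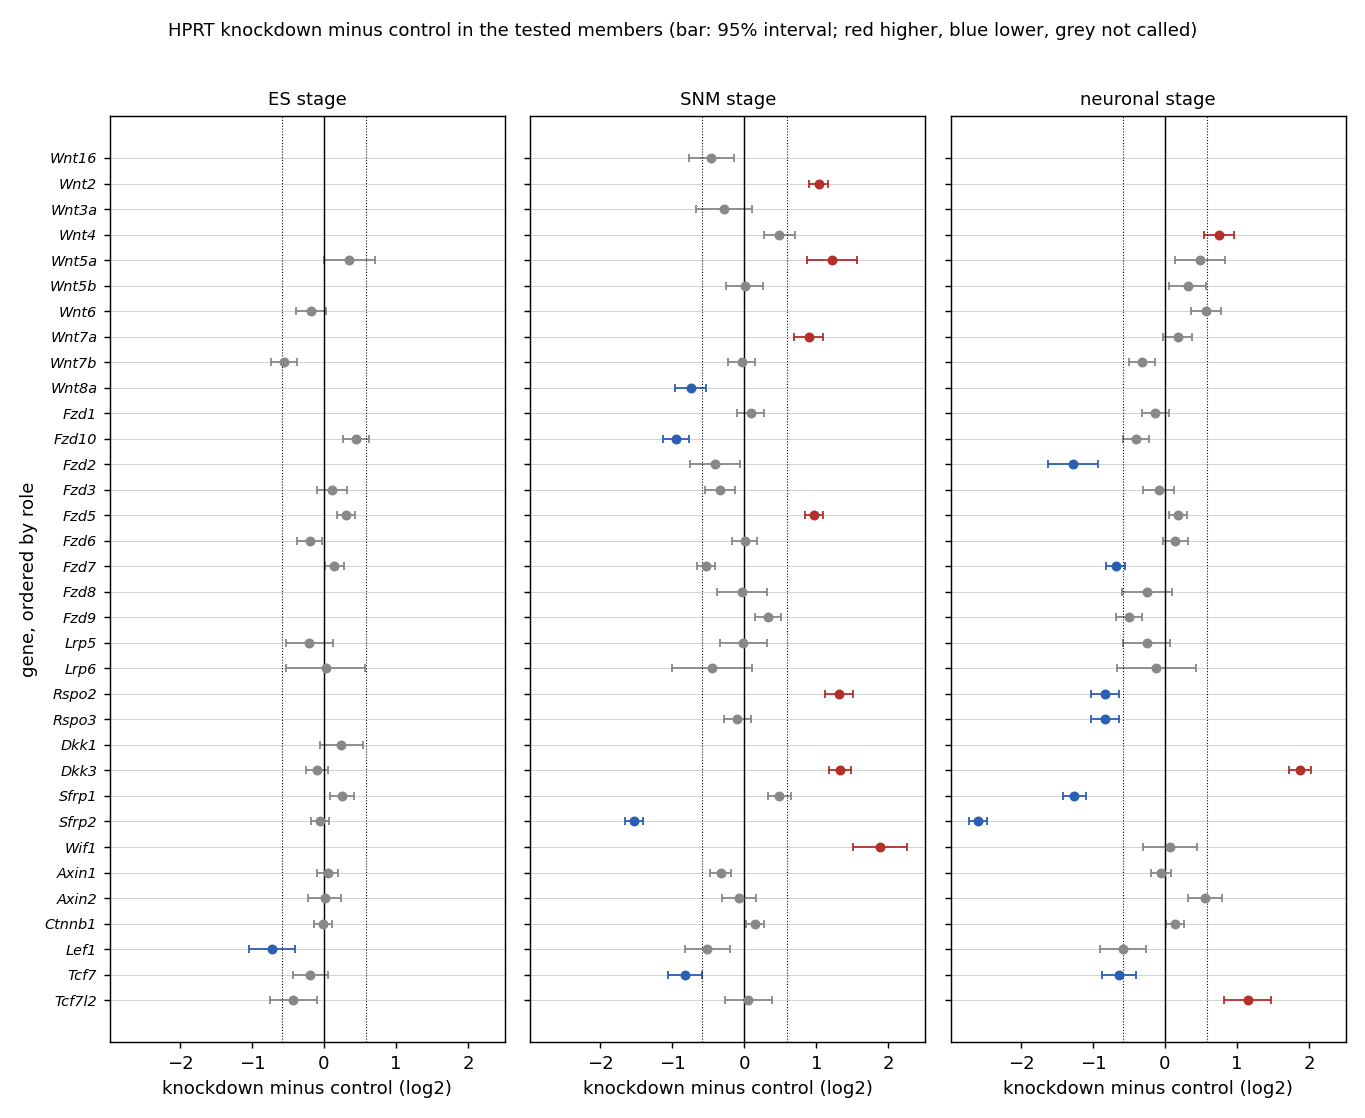
Difference of normalised log2 signal, knockdown minus control, for each gene tested (rows, in order of role) at the ES, SNM and neuronal stage (panels); bars are 95% intervals over arrays, red and blue mark genes called higher and lower, grey genes not called, dotted lines 1.5-fold, and a point for a gene that one cell type did not detect on any array is a fitted difference that includes background signal. Sfrp2 lies to the left at the SNM (-1.53) and neuronal stage (-2.60) and Dkk3 to the right (1.33 and 1.88).

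Among the ligands, 4 of 9 tested were called between SNM cells and 1 of 6 between neuronal cells (16.7%), beside 19.9% and 27.4% of all probes. Wnt5a, a ligand best known for beta-catenin-independent signalling, had log2 signals of 7.36, 7.51 and 7.86 on the control and 8.58, 8.76 and 9.02 on the knockdown SNM arrays. All knockdown arrays lay above all control arrays, a 2.32-fold difference (log2 1.22, SE 0.17, adjusted p = 1.42e-05). At the neuronal stage the signals were 7.97, 8.31 and 8.18 in control and 8.51, 8.68 and 8.73 in knockdown cells, again without overlap, and the difference of 0.49 was under 1.5-fold; a second Wnt5a probe was called higher at both stages (0.95 and 0.81). Wnt2, also a secreted ligand, was detected in 1 condition. Its log2 signal was 5.38, 5.32 and 5.42 on the knockdown SNM arrays and 4.31, 4.38 and 4.33 on the control SNM arrays, of which none detected it. The knockdown signal was at least 1.53-fold above the control, and no array of the other 4 conditions detected the gene. Only detection in knockdown cells brought Wnt2 into the test, so its call is a description. Wnt7a, which is made in developing neural tissue, was higher by 0.90 (SE 0.09, adjusted p = 9.13e-07) at the SNM stage and had a difference of 0.18 at the neuronal stage that was not called. The opposite case was Wnt8a, detected on all 3 control SNM arrays and on no other array. It was at least 1.55-fold lower in knockdown SNM cells, a call lost with the mean of its 3 probes. Its call, too, is a description, since only detection in control cells brought it into the test.

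Wnt4, a ligand of both Wnt branches, was detected on no control array and on all knockdown arrays of the SNM stage, where the knockdown level exceeded the control at least 1.24-fold, without a call. At the neuronal stage its log2 signal was 5.63, 5.33 and 5.35 in control and 6.23, 6.33 and 6.01 in knockdown cells. The knockdown arrays were all higher, by 1.69-fold (0.76, SE 0.10, adjusted p = 6.29e-06), while its second probe gave 0.53 and was not called. Wnt7b, the ligand detected in all 6 conditions, differed by -0.55 at the ES stage (adjusted p = 0.000832), -0.04 at the SNM and -0.32 at the neuronal stage, none called. Wnt5b and Wnt6 differed by 0.32 and 0.57 at the neuronal stage, and Wnt3a and Wnt16 by -0.29 and -0.46 at the SNM stage, also without a call. Wnt2, Wnt4 and Wnt8a lay close to the background, and their calls were not made when the signals were left without background correction.

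Of the 10 Frizzled receptors, the membrane proteins that bind Wnt ligands, 9 were tested at each later stage, and 2 of 9 were called at the SNM and 2 of 9 at the neuronal stage (22.2%), beside 19.9% and 27.4% of all probes. Fzd5 had log2 signals of 7.35, 7.41 and 7.34 on the control and 8.36, 8.41 and 8.24 on the knockdown SNM arrays. The groups were apart by 1.96-fold (0.97, SE 0.06, adjusted p = 1.66e-09), after 0.30 at the ES and before 0.18 at the neuronal stage. This difference rested on 1 of 4 Fzd5 probes; the only other one tested at the SNM stage gave 0.02 (adjusted p = 0.915). Fzd10 moved the other way at the same stage, with 8.63, 8.40 and 8.44 in control and 7.51, 7.55 and 7.57 in knockdown cells. Every knockdown array was lower, by 1.93-fold (-0.95, SE 0.08, adjusted p = 1.52e-07), and the other 2 probes gave -0.45 and -0.53, short of 1.5-fold.

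Among neuronal cells, Fzd2 had log2 signals of 7.37, 7.95 and 7.83 in control and 6.12, 6.58 and 6.61 in knockdown cells. The groups did not overlap and differed by 2.43-fold (-1.28, SE 0.17, adjusted p = 5.55e-06). At the SNM stage the Fzd2 arrays of control (7.74 to 8.15) and knockdown cells (7.31 to 7.75) overlapped, with a difference of -0.41. Fzd7, a receptor of pluripotent and neural progenitor cells, differed by -0.53 at the SNM stage, short of the call, and was called lower among neuronal cells (-0.68, SE 0.06, adjusted p = 8.58e-08). Fzd1, Fzd3, Fzd6, Fzd8 and Fzd9 were tested at both later stages and differed by -0.49 to 0.33, none called. The co-receptors Lrp5 and Lrp6 differed by -0.45 to 0.02 over the 3 stages, none called, with intervals as wide as -1.001 to 0.10 for Lrp6 at the SNM stage.

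R-spondins are secreted proteins that strengthen Wnt signals by keeping Frizzled and Lrp proteins at the cell surface, and 2 of the 4 were detected. Rspo2 had log2 signals of 4.79, 4.77 and 4.81 on the control SNM arrays, 2 of which detected it, and 6.05, 6.06 and 6.21 on the knockdown SNM arrays. In neuronal cells the order was reversed, with 5.78, 5.88 and 5.75 in control and 4.88, 4.81 and 5.23 in knockdown cells. The difference was 1.31 (SE 0.09) at the SNM stage, where only the knockdown arrays brought Rspo2 into the test. At the neuronal stage it was -0.83 (SE 0.09, adjusted p = 7.54e-07). The groups overlapped at neither stage, and the second call was not made without background correction. The change of the knockdown effect between the stages, tested as an interaction, was -2.14 (SE 0.13, adjusted p = 8.52e-10). Control cells thus reached a Rspo2 signal at the neuronal stage (mean 5.80) that knockdown cells had at the SNM stage (6.10) and had lost again by the neuronal stage (4.97). Rspo3 differed by -0.10 at the SNM stage. Its neuronal-stage log2 signals were 7.21, 7.22 and 7.06 in control and 6.43, 6.22 and 6.33 in knockdown cells. All 3 knockdown arrays were lower, by 1.79-fold (-0.84, SE 0.09, adjusted p = 8.22e-07).

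The secreted inhibitors bind Wnt ligands (Sfrp proteins and Wif1) or the Lrp co-receptors (the Dickkopf protein Dkk1). At each of the later stages 3 of the 4 tested were called (75%), beside 19.9% of all probes at the SNM and 27.4% at the neuronal stage. They were Dkk3, Sfrp2 and Wif1 at the SNM stage and Dkk3, Sfrp1 and Sfrp2 at the neuronal stage. Sfrp2 had log2 signals of 7.82, 7.83 and 7.78 in control and 7.72, 7.78 and 7.75 in knockdown ES cells. At the SNM stage they were 11.36, 11.22 and 11.17 in control and 9.66, 9.71 and 9.79 in knockdown cells, and at the neuronal stage 10.32, 10.17 and 10.28 against 7.69, 7.63 and 7.65. The ES arrays overlapped, while knockdown cells were 2.88-fold lower at the SNM stage (-1.53, SE 0.06, adjusted p = 7.59e-12) and 6.06-fold lower at the neuronal stage (-2.60, SE 0.06, adjusted p = 2.25e-15), where their signal was back near that of ES cells. Both steps of this widening were called as interactions (-1.47 and -1.07).

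Sfrp1, the close relative of Sfrp2, did not follow it at the SNM stage, where knockdown cells had the higher signals by 0.49, short of the call. At the neuronal stage its log2 signals were 10.90, 10.87 and 10.84 in control and 9.70, 9.64 and 9.51 in knockdown cells. The groups were apart by 2.39-fold (-1.26, SE 0.08, adjusted p = 8.54e-10), and the second probe gave -1.30. Control cells gained Sfrp1 from the SNM to the neuronal stage (1.37) and knockdown cells did not (-0.37), an interaction of -1.74 (adjusted p = 1.87e-09).

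Dkk3, a Dickkopf relative whose effect on Wnt signals is less settled than that of Dkk1, rose in both cell types and more in knockdown cells. Its log2 signals were 8.47, 8.49 and 8.41 in control and 9.82, 9.81 and 9.72 in knockdown SNM cells. In neuronal cells they were 10.17, 10.26 and 10.10 against 12.09, 12.05 and 12.03. Knockdown cells were higher by 2.51-fold (1.33, SE 0.07, adjusted p = 4.46e-10) and 3.68-fold (1.88, SE 0.07, adjusted p = 1.67e-12), and a second probe gave 1.21 and 1.94.

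Wif1 had log2 signals of 6.04, 6.06 and 5.83 in control and 7.86, 7.77 and 7.95 in knockdown SNM cells. Among neuronal arrays the signals were 8.83, 8.84 and 8.71 in control and 8.85, 8.86 and 8.87 in knockdown cells. The SNM difference was 3.69-fold (1.88, SE 0.18, adjusted p = 2.42e-07), whereas the neuronal means of 8.79 and 8.86 differed by 0.07 (95% interval -0.30 to 0.44). Knockdown cells were thus ahead at the SNM stage and within 1.5-fold of control cells afterwards, where the arrays did not overlap either, and the knockdown effect changed by -1.81 between the stages (adjusted p = 1.65e-05). Dkk1 was tested at the ES stage only and differed by 0.24, not called.

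**Figure D3:**
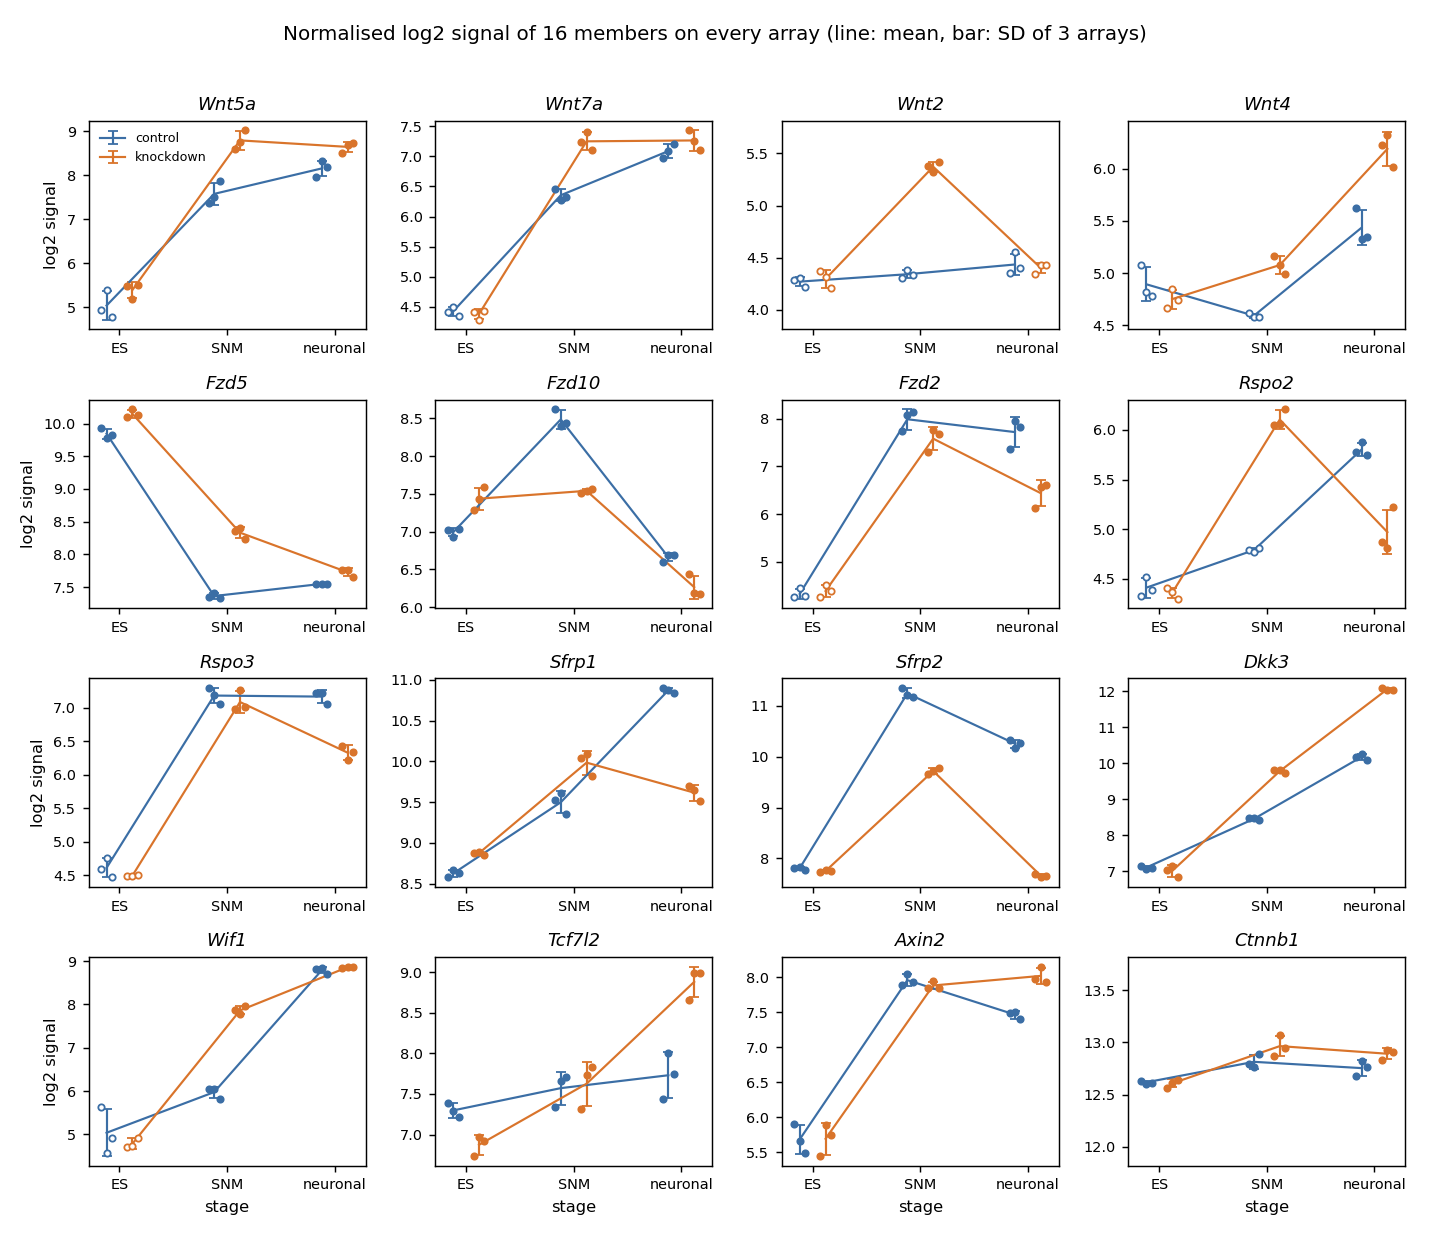
Normalised log2 signal of 16 genes on every array (points) at the ES, SNM and neuronal stage, for control (blue) and knockdown cells (orange); lines join the means of 3 arrays, bars are SD, and open points stand for a condition in which not all 3 arrays detected the gene. The lines of Rspo2 cross between the SNM and the neuronal stage, those of Wif1 meet at the neuronal stage (8.79 and 8.86), and those of Sfrp2 part at the SNM stage and stay apart.

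The start sites of these genes were read from RefSeq promoter windows (GRCm38.p6, 250 bases before to 50 after each start), which held 33 of the 50 genes. Each window was searched on both strands for CTTTGAT and CTTTGAA, letters that TCF/LEF factors recognise; the 2 motifs do not overlap each other at a site. Of the 33 genes 3 (9.091%), namely Dkk1, Wnt5b and Wnt11, held a match, against 2671 of 27025 genes (9.883%) in all windows. The 250 upstream bases of the inhibitors with the largest SNM differences, Sfrp2 (chr3:83766071-83766320, plus strand) and Wif1 (chr10:121033754-121034003, plus strand), and of the 2 detected genes with a match, Dkk1 (chr19:30549497-30549746, minus strand) and Wnt5b (chr6:119449387-119449636, minus strand), are printed 5′ to 3′, ending at the base before the start, with the match in capitals:
Sfrp2: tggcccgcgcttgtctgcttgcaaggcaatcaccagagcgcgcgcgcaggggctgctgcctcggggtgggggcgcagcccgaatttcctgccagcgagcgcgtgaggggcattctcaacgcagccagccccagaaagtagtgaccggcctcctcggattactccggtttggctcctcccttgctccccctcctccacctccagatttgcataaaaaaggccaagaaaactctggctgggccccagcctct
Wif1: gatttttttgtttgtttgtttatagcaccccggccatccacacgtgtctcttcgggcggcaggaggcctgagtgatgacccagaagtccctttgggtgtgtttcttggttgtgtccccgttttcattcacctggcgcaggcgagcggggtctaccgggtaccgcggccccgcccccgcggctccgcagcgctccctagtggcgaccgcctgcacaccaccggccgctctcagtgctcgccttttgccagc
Dkk1: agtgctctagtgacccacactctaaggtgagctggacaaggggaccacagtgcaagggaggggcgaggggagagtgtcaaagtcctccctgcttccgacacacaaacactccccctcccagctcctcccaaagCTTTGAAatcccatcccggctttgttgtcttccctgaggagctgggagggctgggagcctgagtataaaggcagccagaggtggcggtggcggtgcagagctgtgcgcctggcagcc
Wnt5b: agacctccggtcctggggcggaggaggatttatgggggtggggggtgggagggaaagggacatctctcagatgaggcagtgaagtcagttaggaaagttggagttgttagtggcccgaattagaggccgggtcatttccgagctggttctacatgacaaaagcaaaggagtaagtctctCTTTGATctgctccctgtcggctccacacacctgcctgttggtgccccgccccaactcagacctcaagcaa
In Dkk1 the match began at position -117 and in Wnt5b at position -71, counted from the start. Wnt5b had windows at other start sites too, which held no match, and the printed one was taken for its match. G and C made up 63.6% of the Sfrp2, 62.8% of the Wif1, 60.8% of the Dkk1 and 55.6% of the Wnt5b bases, beside a median of 52.4% over all windows, and Sfrp2 and Wif1 held 16 and 21 CG pairs, beside a median of 6. The absence of a match in the Sfrp2 and Wif1 windows says only that these letters were not in them.

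Beta-catenin (Ctnnb1), the protein that carries the signal to the nucleus, had log2 signals of 12.63, 12.60 and 12.62 in control and 12.56, 12.62 and 12.64 in knockdown ES cells. At the SNM stage they were 12.79, 12.76 and 12.89 against 12.87, 13.07 and 12.95, and at the neuronal stage 12.68, 12.82 and 12.76 against 12.83, 12.93 and 12.91. The groups overlapped except at the neuronal stage, and the differences of -0.01, 0.15 and 0.14 had 95% intervals within -0.14 to 0.28, all inside 1.5-fold, though 1 of its other 2 probes fell by 1.02 from the ES to the SNM stage in knockdown cells. Axin2, the feedback inhibitor that beta-catenin itself switches on, had 5.91, 5.67 and 5.49 in control and 5.44, 5.89 and 5.75 in knockdown ES cells. Its SNM signals were 7.89, 8.05 and 7.94 against 7.85, 7.95 and 7.85, and its neuronal signals 7.49, 7.51 and 7.40 against 7.98, 8.15 and 7.93. The groups overlapped at the ES and SNM stages and were apart at the neuronal stage, where the difference of 0.55 (SE 0.11, adjusted p = 0.00041) was 1.47-fold and just short of the call; without array 3 of the knockdown neuronal cells it was 0.60 and called. The change of the effect from the SNM to the neuronal stage was 0.63 (adjusted p = 0.0033), a call lost without background correction, without scaling and without array 2 of the control SNM or of the knockdown neuronal cells. Axin1, a scaffold of the destruction complex, differed by 0.05, -0.33 and -0.05, none called.

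The TCF/LEF factors bind DNA and take up beta-catenin as a partner, and 3 were measured here. At the ES and the SNM stage 1 of the 3 was called and at the neuronal stage 2, beside 1.68%, 19.9% and 27.4% of all probes. Lef1 had log2 signals of 5.55, 5.08 and 5.75 in control and 4.56, 4.87 and 4.79 in knockdown ES cells, of which 1 array detected it. Its SNM signals were 5.37, 5.19 and 5.34 against 4.82, 4.53 and 5.03 and its neuronal signals 4.94, 5.16 and 5.07 against 4.39, 4.58 and 4.44. Knockdown arrays were below control arrays at every stage, by -0.72 (SE 0.15, adjusted p = 0.00584) at the ES stage, which was called, and by -0.51 at the SNM stage, which was not. No knockdown neuronal array detected Lef1, and its level there was at least 1.24-fold lower, also without a call. The ES call was lost without array 3 of the control cells and under 10 of the other alternatives, and the other 3 Lef1 probes were not tested there. Tcf7 was lower in knockdown SNM cells (-0.83, SE 0.11, adjusted p = 1.58e-05) and in knockdown neuronal cells (-0.64, SE 0.11, adjusted p = 0.000151), where 1 of 3 knockdown arrays detected it, and its second probe was called lower at both stages too (-0.59 and -0.60). Neither Tcf7 call was made without background correction, and the second was lost without array 2 of the control or array 1 of the knockdown cells. Tcf7l2 went up instead, with 7.44, 8.003 and 7.75 in control and 8.66, 8.99 and 8.99 in knockdown neuronal cells. The groups were apart by 2.22-fold (1.15, SE 0.15, adjusted p = 7.65e-06), after differences of -0.42 and 0.05 at the earlier stages. Of its other probes 1 gave 0.97 and was called, and 1 gave 0.16 and was not. Knockdown neuronal cells therefore had less signal of Tcf7 and more of Tcf7l2 than control cells, each on its own scale.

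More of these genes were called between stages than between the cell types. From the ES to the SNM stage, control cells had 18 genes called higher and 3 lower of 30 tested, against 49.1% of all probes called (23.7% higher, 25.4% lower). Knockdown cells had 18 higher and 5 lower of 29, against 57.3% of all probes (26.4% higher, 30.9% lower). The median log2 change of the tested genes was 0.88 in control and 1.08 in knockdown cells, beside -0.08 and -0.11 over all probes; a gene tested only because it was detected at the SNM stage could hardly fall, so these shares are descriptions. Among the receptors Fzd1 was at least 15.4-fold higher in control and 15.6-fold higher in knockdown SNM cells than in ES cells, where no array detected it, and Fzd2 at least 8.68-fold and 6.26-fold. Fzd3 rose by 1.80 and 1.35 and Fzd9 was at least 2.16-fold and 2.59-fold higher, while Fzd5 fell by 2.48 and 1.81 and Fzd6 by 0.88 and 0.68. Fzd10 rose by 1.49 in control cells and changed by 0.10 in knockdown cells, an interaction of -1.39 (adjusted p = 2.25e-07). Of 34 genes tested for such an interaction between ES and SNM, 8 were called higher and 5 lower, against 21.3% of all probes (11.7% higher, 9.61% lower). In both cell types Fzd5 thus fell during SNM formation while Fzd1, Fzd2, Fzd3 and Fzd9 rose. The Fzd6 call was lost in both cell types without scaling between arrays and, in knockdown cells, also without background correction or without array 1 of the SNM cells, and that of Fzd9 in control cells was lost under 75th percentile scaling. Fzd8 lay near the background, with 0.65 in control cells and a level at least 1.199-fold higher in knockdown SNM than ES cells, and neither of its calls was made without background correction. The control call of Fzd8 was also lost without array 1 or 3 of the ES or array 2 of the SNM cells.

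The ligands and modulators of the SNM stage appeared alongside. Wnt5a rose by 2.54 in control and 3.40 in knockdown cells, Wnt7b by 2.54 and 3.06, and Wnt7a was at least 2.80-fold and 4.98-fold higher. Rspo3, detected on no ES array, was at least 4.96-fold higher in control and 4.44-fold higher in knockdown cells. Sfrp2 rose by 3.44 in control and 1.97 in knockdown cells. Axin2 rose by 2.27 and 2.19, a step on which the cell types differed by -0.08 (95% interval -0.41 to 0.25). Tcf7 fell by 0.99 and 1.63, while Lef1 in control cells changed by -0.16, which was not called.

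**Figure D4:**
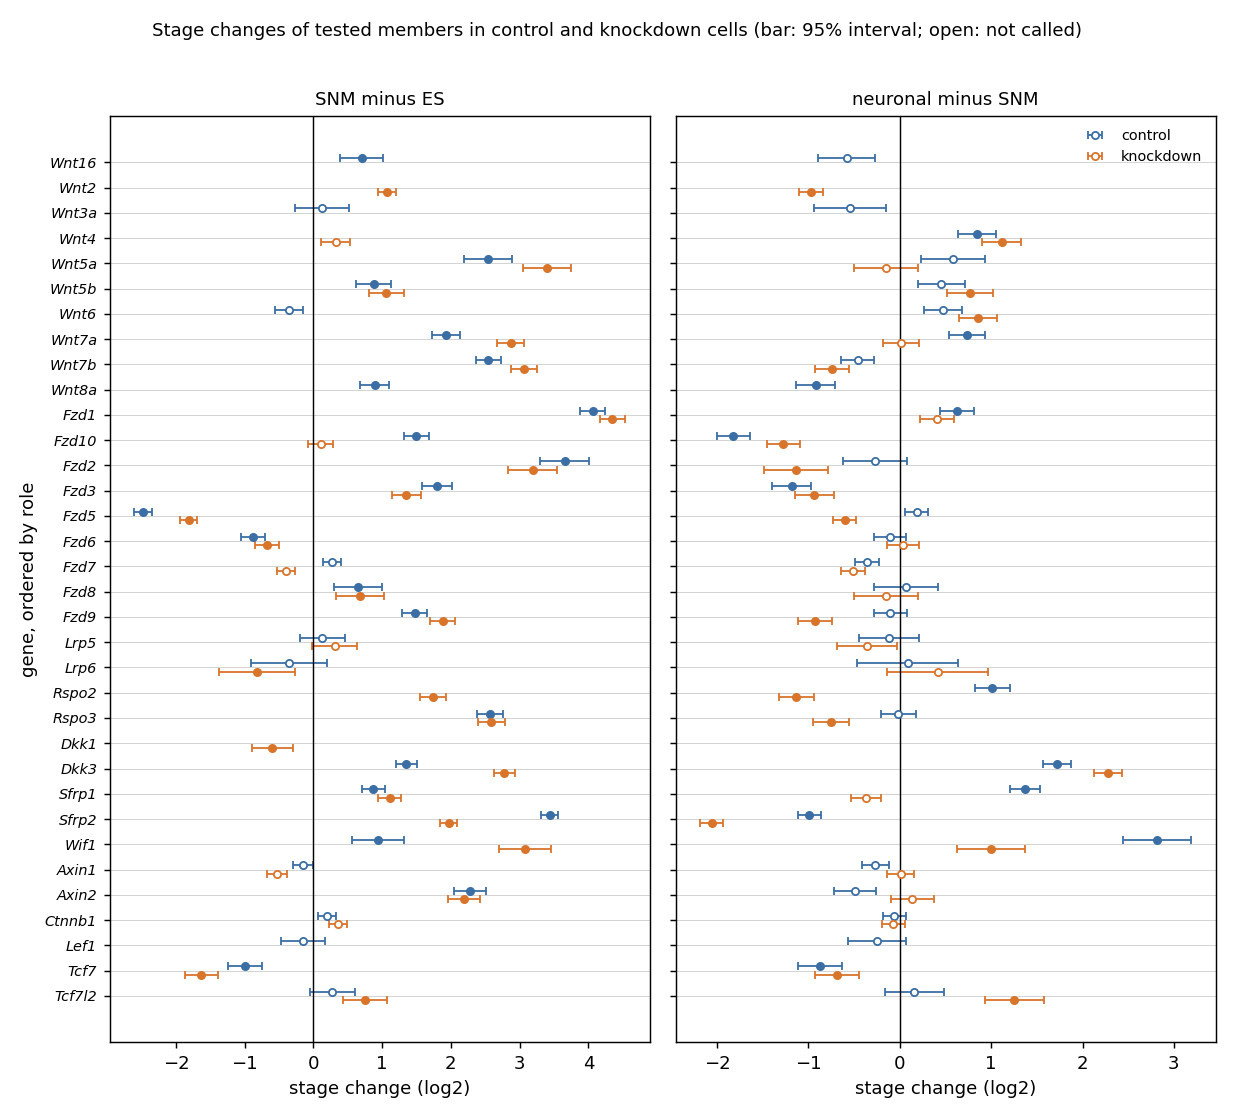
Change of normalised log2 signal from the ES to the SNM stage (left) and from the SNM to the neuronal stage (right) for each tested gene (rows, in order of role) in control (blue) and knockdown cells (orange); bars are 95% intervals over arrays, open points were not called, and a point against a condition in which no array detected the gene is a fitted difference that includes background signal. On the left most points lie above 0 and the cell types part at Fzd10 (1.49 and 0.10) and Sfrp2 (3.44 and 1.97), and on the right Rspo2 (1.01 and -1.13) and Sfrp1 (1.37 and -0.37) lie on opposite sides of 0.

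From the SNM to the neuronal stage control cells had 7 genes called higher and 5 lower of 32 (37.5%), against 29.4% of all probes (14.3% higher, 15.1% lower). Knockdown cells had 6 higher and 11 lower of 29 (58.6%), against 28.6% of all probes (13.8% higher, 14.8% lower). The change differed between the cell types, by the interaction, in 3 genes towards higher and 11 towards lower values in knockdown cells of 33 tested, against 28.6% of all probes (13.7% higher, 14.8% lower). Receptors were among the genes that fell in knockdown cells: Fzd2 (-1.14), Fzd3 (-0.94), Fzd5 (-0.60), Fzd9 (-0.93) and Fzd10 (-1.28) were called lower there, whereas control cells had Fzd3 (-1.19) and Fzd10 (-1.82) called lower and Fzd1 (0.63) higher. Tested directly, the change differed between the cell types for Fzd2 (-0.87, adjusted p = 0.00581), Fzd5 (-0.79, adjusted p = 8.26e-07) and Fzd9 (-0.82, adjusted p = 3.33e-05). Without background correction the knockdown falls of Fzd5 and Fzd9, the control rise of Fzd1 and the Fzd9 interaction were not called, and with the mean of all probes the Fzd5 interaction was not. Wif1 rose by 2.81 in control and 1.00 in knockdown cells, Dkk3 by 1.72 and 2.28, and Sfrp2 fell by 0.99 and 2.06. Tcf7l2 rose by 1.25 in knockdown cells and changed by 0.16 in control cells.

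Of 4 further gene lists of the pathway, the direct target genes of beta-catenin held the most calls. Of 17 targets tested at the ES stage 1 was called higher and 2 lower, with a median of -0.12, against 1.68% of all probes. At the SNM stage 4 of 19 tested targets were called higher and 5 lower in knockdown cells, and at the neuronal stage 5 of 17 higher and 4 lower, against 19.9% and 27.4% of all probes called in either direction. T (Brachyury), a mesoderm factor, was higher by 3.42 and 4.24, and Msx1, a homeobox factor of the dorsal neural tube, by 1.48 at the SNM stage. The midbrain homeobox gene En2 was lower by 2.80 at the SNM stage, the zinc-finger factor Sp8 by 2.21 and 1.90, and Notum, an enzyme that inactivates Wnt proteins, by 1.10 at the SNM stage. Myc and Cd44 were lower at the ES stage (-0.64 and -0.74) and higher at the neuronal stage (1.14 and 1.05), Sp5 was higher at the ES stage (0.72), and Neurod1, a neuronal differentiation factor, was lower at the neuronal stage (-1.26). Targets thus moved in both directions at each stage, with a median of -0.20 and 0.03 at the later stages.

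For the other lists, too, the background was 1.68%, 19.9% and 27.4% of all probes at the 3 stages, and no difference between lists was tested. Among the intracellular components 0 of 29, 4 of 35 and 4 of 33 tested genes were called, shares below the background. The co-activator gene Bcl9l was higher by 1.16 and the co-repressor gene Tle2 by 0.75 at the SNM stage, and the Dishevelled antagonist Nkd2 was lower there (-0.96) and higher at the neuronal stage (0.84). Csnk1d, a casein kinase, was lower at the SNM stage (-0.60), and Dact1, Tle1 and Bcl9 at the neuronal stage (-1.01, -0.84 and -0.63). In the list of planar polarity and calcium signalling 0 of 14 genes were called at the ES stage, 4 of 15 were higher and 0 lower at the SNM stage, and 2 of 16 were higher and 4 lower at the neuronal stage, beside 11% higher and 8.90% lower and then 13.9% and 13.5% of all probes. The calcium-dependent kinase Camk2b was higher by 1.65 at the SNM stage and lower by 0.89 at the neuronal stage, and Camk2a went the same way (0.64 and -1.08). Celsr1, a cadherin of planar polarity, was higher at both later stages (1.35 and 1.09), Camk2g at the SNM stage (0.79) and Celsr2 at the neuronal stage (0.69), where Celsr3 (-1.85) and the kinase gene Mapk8 (-1.44) were lower. Of the genes for Wnt secretion and the cell surface 0 of 11, 4 of 14 and 6 of 14 were called, beside that same background. Sostdc1, a secreted Wnt and BMP antagonist, was higher by 3.36 at the SNM and 0.95 at the neuronal stage, and the glypican genes Gpc3 and Gpc4 by 1.71 and 0.64 at the SNM stage. Among neuronal cells Lrp4 (1.03) and Frzb (0.77), a further Sfrp family member, were higher, and Gpc4 (-0.97), the receptor kinase gene Ror2 (-0.90) and Notum (-0.65) lower.

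Marker genes of other cell types moved at the same stages as the Wnt genes. Between control and knockdown neuronal cells, 9 of 10 skeletal muscle genes were lower and 10 of 10 oligodendrocyte genes higher in knockdown cells, the muscle genes Ckm, Myod1, Myog and Tnnt3 being detected on no knockdown array. Of 10 fibroblast and mesenchyme genes 8 were lower, with a summed signal of 24000 to 27200 in control and 12800 to 17000 in knockdown cells. Further, 4 of 6 tested neuronal genes were lower and 6 of 8 pluripotency genes were lower, against 13.5% of all probes. Of 8 astrocyte genes 6 were higher, Gja1 was lower (-0.71) and Slc1a3 was not called (0.08). Their summed signal was 12500 to 14200 in control and 16600 to 18600 in knockdown cells. Of 5 tested endoderm genes 3 were higher and 0 lower. Of 5 tested neural progenitor genes 1 was higher and 3 lower, and of 4 tested neural crest genes 1 was higher and 2 lower. Of all probes 13.9% were called higher and 13.5% lower at this stage. Among the SNM arrays, the summed signal of the oligodendrocyte genes was 16400 to 18100 in control and 11100 to 12200 in knockdown cells, that of the astrocyte genes 14800 to 16600 and 20000 to 23700, and that of the skeletal muscle genes 2120 to 2210 and 3460 to 3810. On the same SNM arrays the endoderm genes summed to 721 to 753 in control and 1420 to 1670 in knockdown cells. The sums were 3730 to 4010 and 4090 to 6060 for the neural progenitor genes, and 5040 to 5110 and 6650 to 7220 for the neural crest genes. The part of these markers in the Wnt gene differences was not tested.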

How the data were processed

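RNA pools of 6 conditions were read on 3 arrays each. Per array and probe, the deposited table gives the intensity as the authors exported it (average over beads, no background subtracted, not normalized) and the detection p-value. A second deposited table gave only the probe annotation; its 72 columns of per-sample values, named by chip position, were not used. The neqc function (limma 3.58.1, R 4.3.3) was applied with the detection p-values as its guide to background (offset 16, quantile normalization, log2). All probes then entered 1 limma fit of the 6 conditions (lmFit, eBayes; two-sided). Where no array of a condition detected a gene, its fold is a bound against the lowest signal detected there, or its own if higher. Ctnnb1, Axin2, Lef1 and, per stage, the 8 called genes with the largest knockdown differences are given by array, and the 3 largest changes per direction for each pathway list, except 1 gene not reported here. Tcf7l1 is on no probe. The genes and lists were chosen with earlier results of these data known. The array numbers come from the titles. The deviations of control and knockdown arrays of equal number correlated at 0.486, 0.108 and 0.489 at the SNM stage. The values were 0.605, 0.094 and 0.325 at the neuronal stage and -0.094, 0.025 and 0.096 at the ES stage. The number was therefore tried as a block. Other normalizations, filters, thresholds, probe means, the methods' t-tests and leaving out each array were the other alternatives.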

Additional observations from a re-analysis of the deposited data

Results flagged for a closer look

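The knockdown effect on several genes differed between stages by a test of the interaction in the limma model (adjusted p under 0.05, at least 1.5-fold). The background was 21.3% of all probes for the SNM against the ES stage and 28.6% for the neuronal against the SNM stage. The Hprt1 difference itself changed over both steps (2.33 and -2.69), so the stages did not share 1 depth of knockdown. Its part in the interactions was not tested.

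From the ES to the SNM stage the effect, knockdown minus control on the log2 scale, rose for Dkk3 (1.42), Wnt5a (0.86) and Fzd5 (0.66). It fell for Sfrp2 (-1.47), Fzd10 (-1.39), Fzd7 (-0.68) and Tcf7 (-0.63). From the SNM to the neuronal stage the effect fell for Rspo2 (-2.14), Wif1 (-1.81), Sfrp1 (-1.74), Sfrp2 (-1.07), Fzd2 (-0.87), Fzd9 (-0.82), Fzd5 (-0.79), Rspo3 (-0.74), Wnt5a (-0.73) and Wnt7a (-0.72). It rose for Tcf7l2 (1.09) and Axin2 (0.63).

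Other interactions passed the same test but include a condition in which no array detected the gene, so their values hold background signal and give no size or bound. From the ES to the SNM stage these fitted values were 2.14 for Wif1, 1.37 for Rspo2, 1.00 for Wnt2, 0.94 for Wnt7a, 0.63 for Wnt4 and -0.85 for Wnt8a, and from the SNM to the neuronal stage -1.06 for Wnt2 and 0.62 for Wnt8a.

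Without background correction, under quantile normalization and 75th percentile scaling alike, the interactions of Fzd5, Tcf7, Wnt4 and Wnt8a from the ES to the SNM stage and of Axin2, Fzd9, Rspo3, Wnt2, Wnt7a and Wnt8a from the SNM to the neuronal stage were not called. Quantile normalization alone lost that of Wnt2 from the ES to the SNM stage, and 75th percentile scaling alone that of Wnt5a from the SNM to the neuronal stage. With the mean of all probes, the interactions of Fzd5, Wnt5a and Wnt8a were called over neither step. The same setting lost that of Fzd7 from the ES to the SNM stage (-0.34). From the SNM to the neuronal stage it lost that of Tcf7l2 (0.47). For some arrays, leaving out 1 array lost those of Tcf7 and Wnt4 from the ES to the SNM stage. From the SNM to the neuronal stage this held for Axin2, Wnt5a and Wnt8a.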

How the results depend on the processing

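Across the alternatives the directions of all 122 called results held. Without background correction, 45 were no longer called under quantile normalization and 45 under scaling to the 75th percentile, and with an offset of 50 it was 41. The calls lost without background correction included Lef1 (ES), Wnt2, Wnt8a and Tcf7 (SNM) and Rspo2, Wnt4 and Tcf7 (neuronal). Of the 22 calls of knockdown against control, 13 held under all 3 normalizations other than the main one. With the mean of all probes, Lef1 (ES), Fzd5 (SNM, 0.25), Wnt8a (SNM), Tcf7l2 (neuronal, 0.42) and Fzd7 (neuronal) were not called. The call of Rspo3 (neuronal) was lost under quantile normalization and that of Fzd7 (neuronal) under the 75th percentile.

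The 1 gene called lower at the ES stage became 0 under quantile normalization without background correction, the 75th percentile, no scaling, the offset of 50, a detection p under 0.01, a 2-fold minimum, the compared arrays alone, the mean of all probes, the unpaired t-test of the methods after Benjamini-Hochberg and the paired one with and without it. The next counts are given in the order quantile without background correction, 75th percentile, offset of 50 and 2-fold minimum, beside the main count, where they moved by over 1.5 times. Lower at the SNM stage, 4 became 2, 2, 2 and 1. Lower at the neuronal stage, 7 became 4, 4 and, at 2-fold, 3. Lower from ES to SNM in knockdown cells, 5 became 2, 3, 2 and 2. From SNM to neuronal in control cells, 7 higher became 3, 3, 4 and 4, and 5 lower became 3, 3, 3 and 2. In knockdown cells, 6 higher became 3 under quantile and 3 at 2-fold, and 11 lower became 5, 6, 6 and 4. Of the interactions from ES to SNM, 8 higher became 5 under quantile, 5 with the offset and 4 at 2-fold, and 5 lower became 3, 3, 3 and 2. Of those from SNM to neuronal, 11 lower became 7, 6, 7 and 5, and 3 higher became 1 at 2-fold. With the mean of all probes, 3 interactions were lower from ES to SNM and 1 was higher from SNM to neuronal. Without scaling, 1 gene was lower from ES to SNM in control and 2 in knockdown cells, and the 2-fold minimum also gave 1 in control cells. For knockdown cells, the unpaired t-test gave 3.

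Leaving out 1 array gave 0 to 2 genes lower at the ES stage. It was 2 without array 1 of the control or array 3 of the knockdown ES cells, when Wnt7b was called too (-0.61 and -0.59), and 0 without array 3 of the control cells. It gave 3 to 5 higher at the neuronal stage (5 without array 3 of the knockdown cells, with Axin2 at 0.60 and Wnt6 at 0.59) and 2 to 5 lower from ES to SNM in knockdown cells (2 without array 1 of the knockdown SNM cells).

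With the array number as a replicate block the counts stayed at 0 higher and 1 lower (ES), 7 and 4 (SNM) and 3 and 7 (neuronal), and no call was lost; the block within each stage gave the same counts. The methods' paired t-test, the other blocked test, gave 3 genes lower from ES to SNM in knockdown cells at an unadjusted p and 2 after Benjamini-Hochberg, and the latter lost 15 of 95 calls, among them Wnt7a and Tcf7 at the SNM stage.

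The median change of all probes from ES to SNM shifted with the scaling, from -0.08 to -0.17 (75th percentile) and 0.19 (no scaling) in control cells, and from -0.11 to -0.21 and 0.12 in knockdown cells. Splits of all probes into higher and lower calls moved with it, in control cells from 4916 and 5251 to 3004 and 4152, and to 6716 and 3107. With 3 arrays of 1 RNA pool per condition, precision covers the measurement alone.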
